A study of Arabidopsis thaliana with 21 samples.

Results

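The RBCS and LHCB1 families supply a large part of the nuclear-encoded protein of the Arabidopsis chloroplast, and most of their genes lie side by side. The 9 genes described here were the 4 RBCS genes, RBCS1A (AT1G67090), RBCS1B (AT5G38430), RBCS2B (AT5G38420) and RBCS3B (AT5G38410), and the 5 LHCB1 genes, LHCB1.1 (AT1G29920), LHCB1.2 (AT1G29910), LHCB1.3 (AT1G29930), LHCB1.4 (AT2G34430) and LHCB1.5 (AT2G34420). They were taken by locus identifier as the named members of the families, with no measured value in the choice, and make up 9 of the 33602 loci of the TAIR10 annotation and 9 of its 27206 nuclear protein-coding genes. All 9 identifiers were found in TAIR10 and in the newer TAIR10.1 annotation. TAIR10.1 gives the LHCB1 genes other names: CAB2 for LHCB1.1, CAB3 for LHCB1.2, CAB1 for LHCB1.3, LHB1B1 for LHCB1.4 and LHB1B2 for LHCB1.5.

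RBCS genes encode the small subunit of Rubisco, the enzyme that fixes CO2 in the Calvin-Benson cycle. The subunit is made in the cytosol with an N-terminal transit peptide, imported into the chloroplast, trimmed and assembled with the large subunit that the chloroplast genome encodes. LHCB1 genes encode the main protein of LHCII, the chlorophyll a/b antenna of photosystem II, which is imported in the same way and inserted into the thylakoid membrane. Both families are known for transcription in green tissue under light, and the LHCB1 genes also for control by the circadian clock.

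The study sequenced 21 poly(A)-selected, strand-specific RNA libraries from Col-0 plants, arranged as 7 groups with 3 biological replicates each. Wild type (WT) provided a leaf group, a cambium stem group and a herbaceous stem group. The soc1-ful genotype, mutant in the MADS-box flowering regulators SOC1 and FUL, provided the same kinds of sample and also a wood stem group. Stem libraries numbered 15 and leaf libraries 6, and 9 libraries came from WT and 12 from soc1-ful. The labels name neither the alleles nor the plants behind each library. The deposited file analysed here is the gene annotation, which carries no value of any library, so transcript levels of the 9 genes, library depth and differences between groups are not analysed here. Every value below is a position, a length, a count or an identity read from the annotation and the reference sequence. Such values have no replicates, no sampling error and no test.

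The genes of a family are close copies that differ at scattered bases. The stretch of 30 coding bases that varied most among the 4 RBCS genes began at coding base 13, inside the transit peptide, and 10 of its 30 bases differed between at least 1 pair of genes. Capitals mark those bases in the following sequences, which are read 5′ to 3′ on the coding strand from the TAIR10.1 sequence at TAIR10 positions.
RBCS1A (chr1:25049208-25049237, minus strand): atgCtctcTtcCGcTActAtggttGcCtcT
RBCS1B (chr5:15385114-15385143, minus strand): atgCtctcCtcTGcCGctGtggttAcCtcC
RBCS2B (chr5:15381937-15381966, minus strand): atgTtctcCtcCAcCGctGtggttAcCtcC
RBCS3B (chr5:15378265-15378294, minus strand): atgCtctcCtcCGcCGctGtggttAcAtcC
RBCS1A stands apart from the tandem genes at several of the capital positions, whereas the tandem genes differ from each other at fewer.

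The corresponding stretch of the LHCB1 genes began at coding base 61, and at coding base 55 in LHCB1.5, whose coding sequence is shorter. It held 12 variable bases, again marked by capitals.
LHCB1.1 (chr1:10475803-10475832, minus strand): TCCccTgcGgcAtcAgaAgtCCtTggaaGc
LHCB1.2 (chr1:10473157-10473186, minus strand): TCCccCgcGgcAtcTgaAgtCCtCggaaGc
LHCB1.3 (chr1:10478131-10478160, plus strand): TCCccCgcGgcAtcTgaAgtCCtTggaaGc
LHCB1.4 (chr2:14524878-14524907, plus strand): TCCccGgcGgcCtcCgaAgtATtTggaaCc
LHCB1.5 (chr2:14523430-14523459, minus strand): AAGccTgcCgcAtcAgaTgtCCtCggaaGc
The 3 chromosome 1 genes differ from each other at few of these bases, and most capitals separate them from LHCB1.4 or LHCB1.5.

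Clusters of 2 or 3 genes hold 8 of the 9 members, and RBCS1A lies alone. The tandem RBCS genes occupied 8075 bp of chromosome 5, in the order RBCS3B (15377173 to 15378416), RBCS2B (15380945 to 15382035) and RBCS1B (15384117 to 15385247), all 3 on the minus strand. The gap between the annotated ends was 2528 bp from RBCS3B to RBCS2B and 2081 bp from RBCS2B to RBCS1B. Among the 14269 pairs of neighbouring nuclear coding genes on the same strand the median gap was 976 bp, and 78.8% and 73.6% of these pairs had a smaller gap. Both gaps were wider than the median in TAIR10. In TAIR10.1, whose RBCS1B has a longer 3′ end, the RBCS2B to RBCS1B gap was 1095 bp. TAIR10 placed no locus between the 3 genes. TAIR10.1 placed 2 long noncoding RNA loci, AT5G05725 and AT5G05745, between RBCS3B and RBCS2B.

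RBCS1A (chromosome 1, 25048158 to 25049424, minus strand) had ABA4, a gene of abscisic acid synthesis, 1297 bp away on the 3′ side and LBD40, of the LOB domain family, 4309 bp away on the 5′ side. That 5′ gap was the widest beside any member in TAIR10, and 84.5% of divergent pairs had a smaller one.

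The LHCB1 genes on chromosome 1 occupied 6769 bp: LHCB1.2 (10472280 to 10473299) and LHCB1.1 (10474784 to 10475959) on the minus strand and LHCB1.3 (10478005 to 10479048) on the plus strand. LHCB1.2 and LHCB1.1 were 1484 bp apart in the same orientation, and 63.7% of same-strand pairs had a smaller gap. LHCB1.1 and LHCB1.3 were transcribed away from each other across 2045 bp. On chromosome 2, LHCB1.5 (14522524 to 14523568, minus strand) and LHCB1.4 (14524756 to 14525763, plus strand) also diverged, across 1187 bp, in a cluster of 3240 bp. Both LHCB1 clusters therefore contain a head-to-head pair, a layout taken by 23.8% of all 27201 neighbouring pairs and absent from the RBCS tandem. The median divergent gap was 1402 bp. Smaller gaps were found in 62.3% of divergent pairs for LHCB1.1 and LHCB1.3 and in 44.5% for LHCB1.5 and LHCB1.4, so the former gap is wider and the latter narrower than the median.

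**Figure D1:**
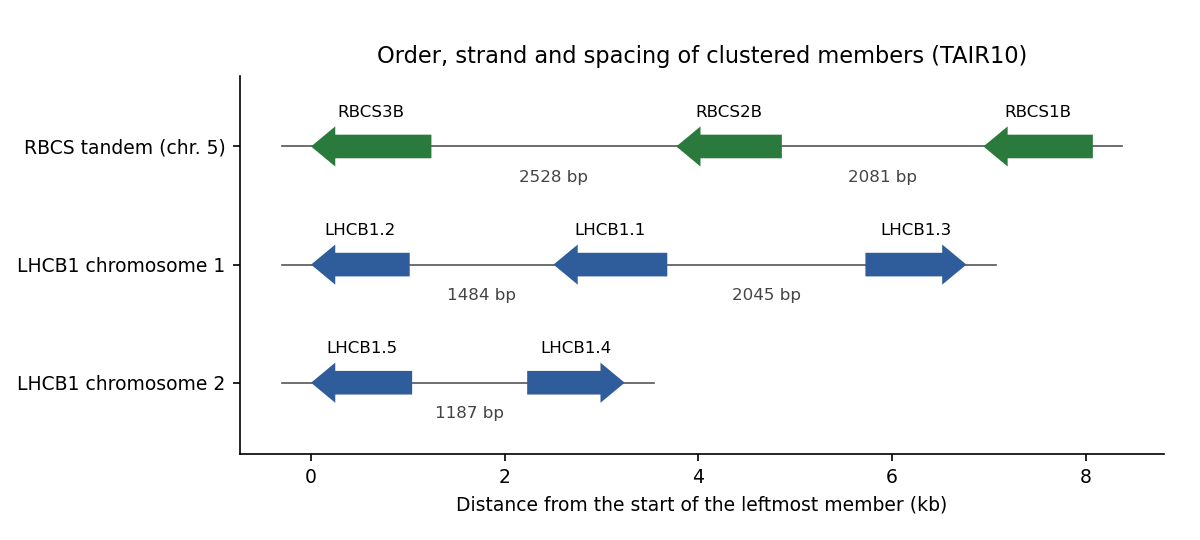
Position of the 8 clustered genes along the chromosome, in kb from the leftmost member of each cluster; arrows point in the direction of transcription and the gap between annotated ends is given in bp. The RBCS genes all point the same way, and each LHCB1 cluster has a divergent pair.

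The 3′ ends of 3 of the 4 outer LHCB1 genes lie close to or within a neighbour. On chromosome 1, CARB, which encodes the large subunit of carbamoyl phosphate synthetase, ended 68 bp from the 3′ end of LHCB1.2. NRPA2, which encodes a subunit of RNA polymerase I, ended 72 bp from the 3′ end of LHCB1.3. The median gap of convergent pairs was 246 bp, and 31.8% and 32.4% of them had a smaller gap than these genes. On chromosome 2, LHCB1.4 was the exception, with AGL29, a MADS-box gene, 1186 bp away on the same strand. At the other end of that cluster, the 3′ UTR of LHCB1.5 shared 99 bp with RWA3, a gene of cell wall polysaccharide acetylation on the opposite strand. Those 99 bp were 9.47% of the exonic bases of LHCB1.5, and 1 of the 3 RWA3 isoforms reached them. LHCB1.5 was the only one of the 9 genes that shared exonic bases with another coding gene in TAIR10, where 12.3% of nuclear coding genes did. In TAIR10.1 the longer 3′ end of LHCB1.3 also overlapped NRPA2, by 108 bp (8.78% of its exonic bases). That made 2 of 9 members, where 24.6% of nuclear coding genes shared bases with another. TAIR10.1 further placed a noncoding locus, AT2G08665, opposite all 1045 exonic bases of LHCB1.5. On all of these shared stretches the genes lie on opposite strands, and the labels describe the libraries as strand-specific.

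The 4 RBCS genes share 1 exon plan. Each coding sequence was interrupted after codon 57 and again after codon 102, in every case between codons (phase 0). The coding parts of the exons were 171, 135 and 240 bp long in the 3 tandem genes, and 171, 135 and 237 bp in RBCS1A, which encodes 180 residues where the others encode 181. The introns kept their places but not their lengths. Coding intron 1 was 106 bp in RBCS1A, 89 bp in RBCS1B, 90 bp in RBCS2B and 90 bp in RBCS3B. Coding intron 2 was 136 bp in RBCS1A, 171 bp in RBCS1B, 140 bp in RBCS2B and 170 bp in RBCS3B. The median of the 117151 introns of nuclear coding genes was 99 bp, so intron 1 was near it and intron 2 above it in all 4 genes.

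RBCS1B carried an additional intron of 63 bp (15385179 to 15385241) in its 5′ UTR, after a first exon of only 6 bases. An intron in the 5′ UTR was annotated in 13.3% of nuclear coding genes, and an exon of at most 6 bases in 0.169%. The intron begins with GC in place of GT and ends with AG, as did 0.972% of all introns, whereas the other 8 introns of the first listed isoforms had GT and AG. Its first 30 bases are shown with the GC in capitals because these ends set it apart.
RBCS1B (chr5:15385212-15385241, minus strand): GCtttttgcctcttacggttctcactatat
TAIR10.1 gives RBCS1B another transcript, which lacks this intron.

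The 5 LHCB1 genes had no intron at all, and neither did 21.9% of nuclear coding genes, whose median was 3 introns. Their coding sequences were 804 bp in LHCB1.1, LHCB1.2 and LHCB1.3, 801 bp in LHCB1.4 and 798 bp in LHCB1.5, for proteins of 267, 266 and 265 residues. The coding sequences of both families were shorter than the median of all nuclear coding genes, 1041 bp.

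**Figure D2:**
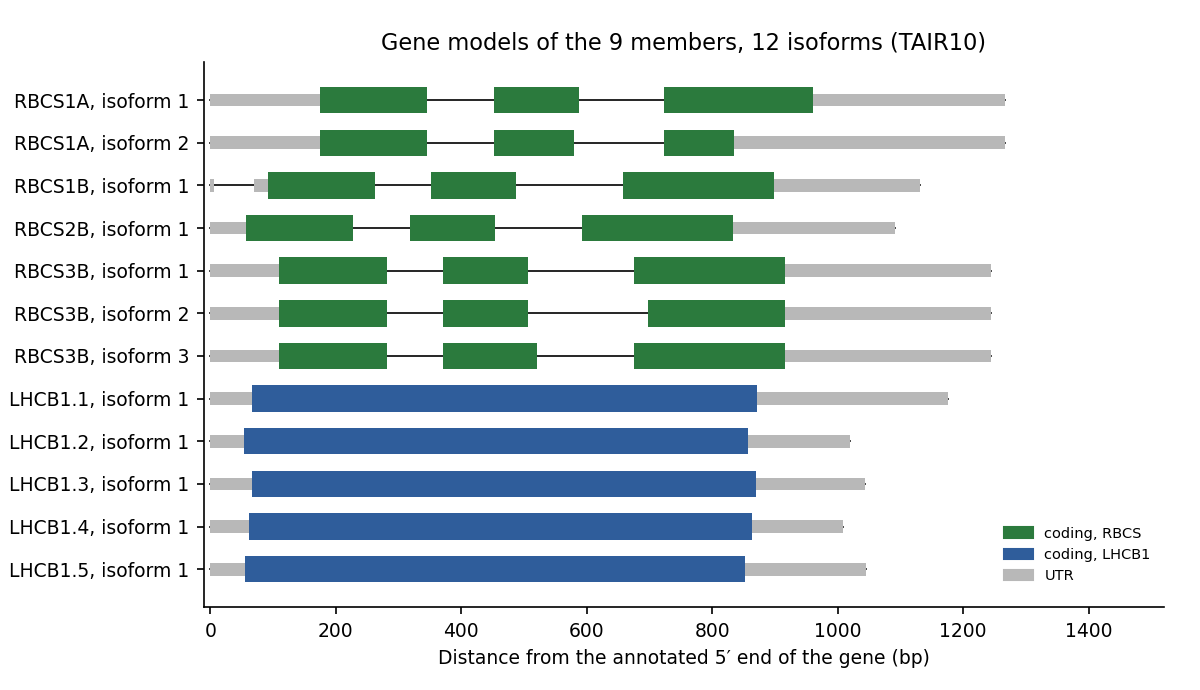
Exons of the 12 annotated isoforms, in bp from the 5′ end of each gene; tall coloured boxes are coding, low grey boxes are UTR and lines are introns. The RBCS genes repeat 1 exon plan, RBCS1B begins with a 6-base exon, and the LHCB1 genes are single exons.

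UTRs varied more than coding sequences in both families. The RBCS 5′ UTR was 175 bp in RBCS1A, 110 bp in RBCS3B, 57 bp in RBCS2B and 29 bp in RBCS1B, so the longest and the shortest lie on either side of the genome-wide median of 102 bp. The LHCB1 5′ UTRs ran from 53 bp in LHCB1.2 to 67 bp in LHCB1.1 in TAIR10. In TAIR10.1 LHCB1.5 had the shortest, with 55 bp, then LHCB1.1 with 77 bp, LHCB1.3 with 186 bp and LHCB1.4 with 211 bp, and LHCB1.2, whose 5′ end moved by 203 bp, the longest. The narrow range was therefore found in TAIR10 only. Within the TAIR10 5′ UTRs, ATG triplets were found in RBCS1A, with 2, and RBCS3B, with 1, and in none of the other 7 genes. The longer TAIR10.1 ends were not counted, and neither was the share over all genes.

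The 3′ UTR was 307 bp in RBCS1A, 233 bp in RBCS1B, 258 bp in RBCS2B and 328 bp in RBCS3B, all above the genome-wide median of 204 bp. In the LHCB1 family only LHCB1.1 exceeded that median, with 305 bp. The others had 192 bp in LHCB1.5, 174 bp in LHCB1.3, 163 bp in LHCB1.2 and 145 bp in LHCB1.4. Full transcripts ran from 808 bp in RBCS1B to 1025 bp in RBCS1A, and from 1008 bp in LHCB1.4 to 1176 bp in LHCB1.1. The median transcript of all nuclear coding genes was 1333 bp, longer than any of the 9.

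The TAIR10.1 annotation extended the 5′ end of 8 of the 9 genes, all but LHCB1.5, by 10 to 243 bp, and the 3′ end of 6. The share of all nuclear coding genes with extended ends was not counted, so whether this is particular to the members is not known. Exonic bases rose 1.09-fold in RBCS2B and 2.34-fold in RBCS1B, whose 3′ end moved by 950 bp, and stayed the same in LHCB1.5. The UTR lengths are therefore the part of these models that depends most on the annotation used.

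The coding sequences of all 9 genes were rich in G and C. Coding GC content was 50.4% to 51.6% in the RBCS genes and 54.5% to 57.0% in the LHCB1 genes, against a median of 44.1% over nuclear coding genes. At codon position 3 it was 60.4% in RBCS1B, 61.0% in RBCS2B, 61.9% in RBCS1A and 63.2% in RBCS3B. The LHCB1 genes had 58.2% in LHCB1.1, 60.4% in LHCB1.2 and in LHCB1.3, 64.8% in LHCB1.4 and 65.4% in LHCB1.5. The median at codon position 3 was 42.1% and 95% of genes lay under 54.2%, so all 9 were above that mark, LHCB1.1 by least. The introns did not share the property: RBCS intron GC content was 24.0% in RBCS1A and 27.7% to 29.4% in the tandem genes, below the intron median of 32.7%. The families also differed in their stop codons, TAA in the first listed isoform of the 4 RBCS genes and TGA in the 5 LHCB1 genes.

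Alternative isoforms were annotated for RBCS1A (2 isoforms) and RBCS3B (3 isoforms), which makes 2 of 9 members. Among nuclear coding genes 21.3% had 2 or more, so the share is near the background. All 3 alternative transcripts differed from the first by a single change at coding intron 2. The second isoform of RBCS1A used a donor 7 bases upstream. The reading frame then shifted after residue 99, and the protein had 136 residues in place of 180, of which 37 followed the shared part. The 3′ UTR became 125 bp longer and the stop codon TGA.

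The RBCS3B isoforms kept the frame. Isoform 2 used an acceptor 21 bases downstream and encoded 174 residues, 7 fewer than the first. Isoform 3 used a donor 15 bases downstream and encoded 186 residues, 5 more. Isoforms of a gene were thus told apart by 7, 21 and 15 exonic bases, respectively, apart from the words across their junctions.

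The sequence around intron 2 is shown because these changes lie there, with exon bases in capitals and intron bases in lower case. The exon 2 end and the start of intron 2 are given for 3 of the 4 genes.
RBCS1A (chr1:25048820-25048849, minus strand): TTCGAGTTGGAGgtaattaaacaaaattta
RBCS1B (chr5:15384743-15384772, minus strand): TTCGAGTTGGAGgtaatatacacaaaactt
RBCS2B (chr5:15381565-15381594, minus strand): TTCGAGTTGGAGgtaatatacactgaactt
The start of exon 3 followed the last intron bases as given in the next 4 sequences.
RBCS1A (chr1:25048678-25048707, minus strand): gtatagCACGGATTTGTGTACCGTGAGCAC
RBCS1B (chr5:15384566-15384595, minus strand): ttatagCACGGATTTGTGTACCGTGAGCAC
RBCS2B (chr5:15381419-15381448, minus strand): atatagCACGGATTTGTGTACCGTGAGCAC
RBCS3B (chr5:15377717-15377746, minus strand): ttatagCACGGATTTGTGTACCGTGAGCAC
A GT lay 7 bases upstream of the donor in all 4 genes, and TAIR10 lists an isoform that uses it for RBCS1A. An AG ended 21 bases downstream of the acceptor in all 4, and the isoform that uses it is listed for RBCS3B. The presence of the donor of RBCS3B isoform 3 in the other genes is not reported here. TAIR10.1 listed 13 isoforms for the 9 genes where TAIR10 listed 12, the added one being that of RBCS1B.

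Within the RBCS family the tandem genes were closest to each other. Their coding sequences were 96.7% to 97.2% identical, and each was 90.4% to 90.6% identical to RBCS1A, over aligned positions without a gap. The 3 comparisons with RBCS1A share that gene, and pairs of a family share descent, so pairs are not independent. Residue differences fell in the transit peptide and, in all pairs but 1, in the mature enzyme as well. The first 55 residues precede the conserved start of the mature chain, which has 126 residues in the tandem genes. RBCS2B and RBCS3B differed at 6 residues, all of them among the first 55, and their mature chains were identical. RBCS1B differed from RBCS2B at 4 residues, 2 of them in the mature chain, and from RBCS3B at 6, also with 2 in the mature chain. RBCS1A differed from RBCS1B at 13 residues, 6 of them in the mature chain, and from RBCS2B and RBCS3B at 16 each, 7 of them in the mature chain.

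The LHCB1 proteins differed less although their coding sequences differed more. LHCB1.1 and LHCB1.2 encoded the same protein: their coding sequences differed at 35 bases in 34 codons, and every one of those codons specified the same residue. LHCB1.3 differed from both at residue 19 alone, with 31 and 29 base differences. LHCB1.4 and LHCB1.5 differed from each other at 10 residues, all among the first 50, and at 60 bases. Between the chromosomes, coding sequences were 87.0% to 90.8% identical and proteins 95.5% to 98.1%. LHCB1.5 was closer than LHCB1.4 to the chromosome 1 genes, with 5 or 6 residue differences against 11 or 12.

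Summed over the 10 LHCB1 pairs, 89.9% of the differing codons specified the same residue and 88.4% of the base differences fell at codon position 3. Over the 6 RBCS pairs these shares were 65.7% and 68.1%. In the joint alignment 133 LHCB1 columns (16.7%) and 63 RBCS columns (11.6%) varied. No run without a difference exceeded 35 bp in the LHCB1 alignment or 44 bp in the RBCS alignment.

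**Figure D3:**
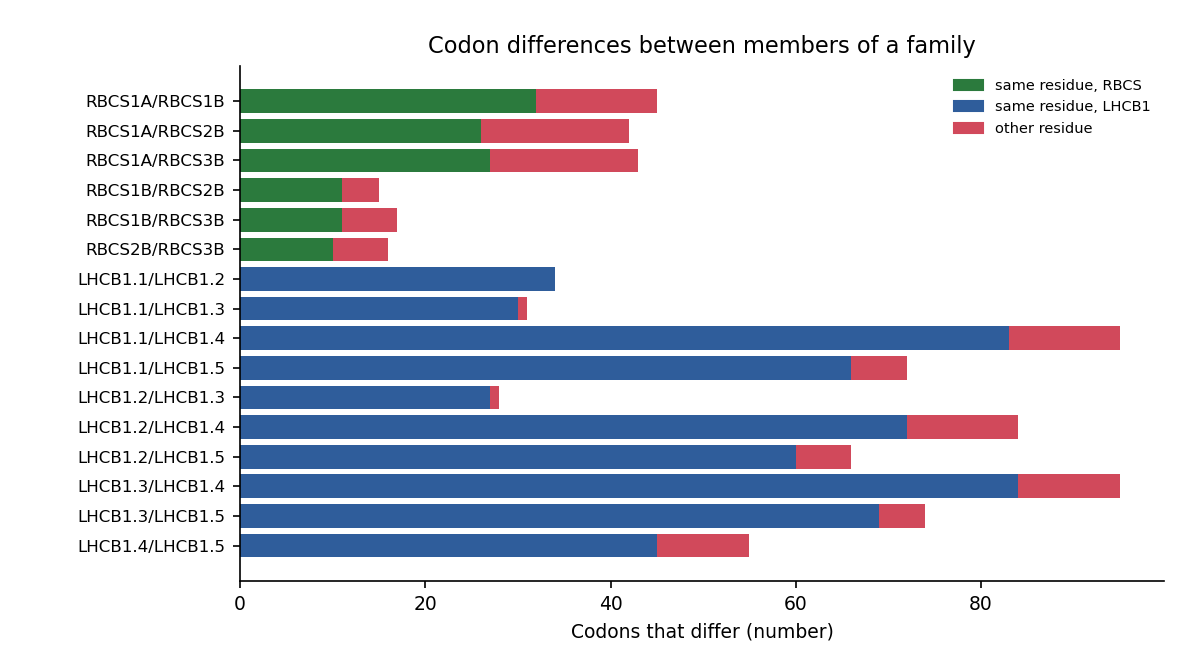
Number of codons that differ in each pair of genes of a family, divided into codons for the same residue and codons for another residue. LHCB1.1 and LHCB1.2 differ at 34 codons and no residue, and RBCS pairs have a greater share of codons for another residue.

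Outside the coding sequence the identity of the tandem RBCS genes fell unevenly. Coding intron 1 was 95.5% identical between RBCS1B and RBCS2B and 83.3% identical in both pairs with RBCS3B. Coding intron 2 had another order, with 97.1% between RBCS1B and RBCS3B, 88.6% between RBCS1B and RBCS2B and 83.6% between RBCS2B and RBCS3B. The gene closest to RBCS1B was thus RBCS2B in intron 1 and RBCS3B in intron 2. The 3′ UTRs were 63.9% to 77.8% identical. The 250 bases before the annotated start were 87.7% to 90.3% identical over ungapped positions. With gaps counted as differences this upstream value was 36.2% to 58.2%. The annotated starts of the 3 genes lie at different distances from the coding start. RBCS1A and the tandem genes shared 56.7% to 58.8% of positions in intron 1.

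Among the LHCB1 genes the 3′ UTR of the chromosome 1 genes was 81.6% to 91.4% identical over ungapped positions. In the chromosome 2 pair it was 62.7%. Upstream sequences were 62.8% to 80.7% identical on chromosome 1 and 61.0% in the chromosome 2 pair. The 20 pairs of an RBCS with an LHCB1 gene, which are unrelated, gave 50.6% to 65.2% upstream and 56.0% to 71.8% in the 3′ UTR. The chromosome 2 pair lay within the range of unrelated genes in both features. So did the pairs of LHCB1.3 with LHCB1.1 (63.3%) and with LHCB1.2 (62.8%) upstream, and the tandem RBCS pairs at 63.9% and 64.6% in the 3′ UTR. Between the chromosomes, LHCB1.3 with LHCB1.4 (71.1%) and LHCB1.5 with LHCB1.1 (71.0%) and LHCB1.2 (69.9%) lay above the unrelated range upstream. LHCB1.4 with LHCB1.1 (62.7%) and LHCB1.2 (60.7%), and LHCB1.3 with LHCB1.5 (62.8%), lay within it. The 3 tandem RBCS pairs lay above the unrelated range upstream over ungapped positions. With gaps counted, the unrelated pairs gave 41.6% to 50.9% upstream, and the tandem pair at 36.2% then lay below that range.

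**Figure D4:**
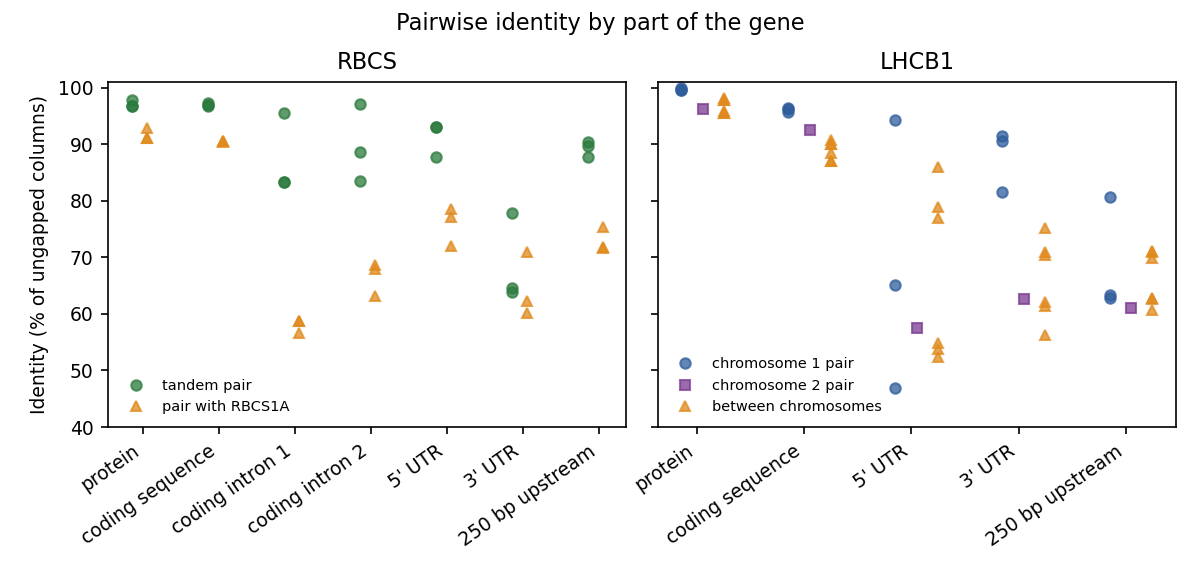
Identity of each pair of genes of a family by part of the gene, as a percentage of aligned positions without a gap. Coding sequences of the tandem RBCS genes reach 96.7% to 97.2%, pairs with RBCS1A 90.4% to 90.6%, and UTRs and upstream sequences spread more widely than coding sequences in both families.

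The copies are alike enough that short exonic sequences cannot always be placed in 1 gene. Words of 50 bases inside single exons were searched in the whole genome on both strands. RBCS1A had no word that occurred again, out of 878. When words could cross the junctions of the spliced transcript, 18 of its 976 words (1.84%) did, and all 9 genes held repeated words. Within single exons, the share was 31.9% in RBCS1B, 24.5% in RBCS3B and 18.6% in RBCS2B. In spliced transcripts it was 34.0%, 22.7% and 23.4%, respectively. In the LHCB1 genes it was 23.0% in LHCB1.1, 20.2% in LHCB1.3, 18.0% in LHCB1.4, 17.3% in LHCB1.5 and 12.9% in LHCB1.2. Within single exons, 8 of the 9 genes thus held repeated words, where 14.6% of nuclear coding genes held any.

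Every repeated word of a member recurred in another member of its family and in no other gene. RBCS1B and RBCS3B shared 181 words although RBCS2B lies between them, against 105 words in each pair with RBCS2B. They also shared an unbroken run of 310 bp, of which 230 bp were coding bases of exon 3 and the rest lay in intron 2. The longest run of RBCS1B with RBCS2B was 89 bp and that of RBCS2B with RBCS3B 97 bp. LHCB1.1 shared 176 words with LHCB1.3 and 100 with LHCB1.2, and LHCB1.4 shared 172 with LHCB1.5. Only 1 word passed between the chromosomes, in LHCB1.1, LHCB1.2 and LHCB1.4.

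The repeated words lay in coding sequence. Of 5359 words wholly inside coding sequence 1479 were repeated, and of 253 words wholly in a 5′ UTR and 1789 wholly in a 3′ UTR, none was. Here UTRs were those of any isoform and coding sequence that of the first, so in RBCS1A some words fell in both classes. The remaining 2 repeated words crossed from the stop codon into the 3′ UTR, in RBCS2B and RBCS3B. The 3′ UTRs therefore told all 9 genes apart at this word length.

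**Figure D5:**
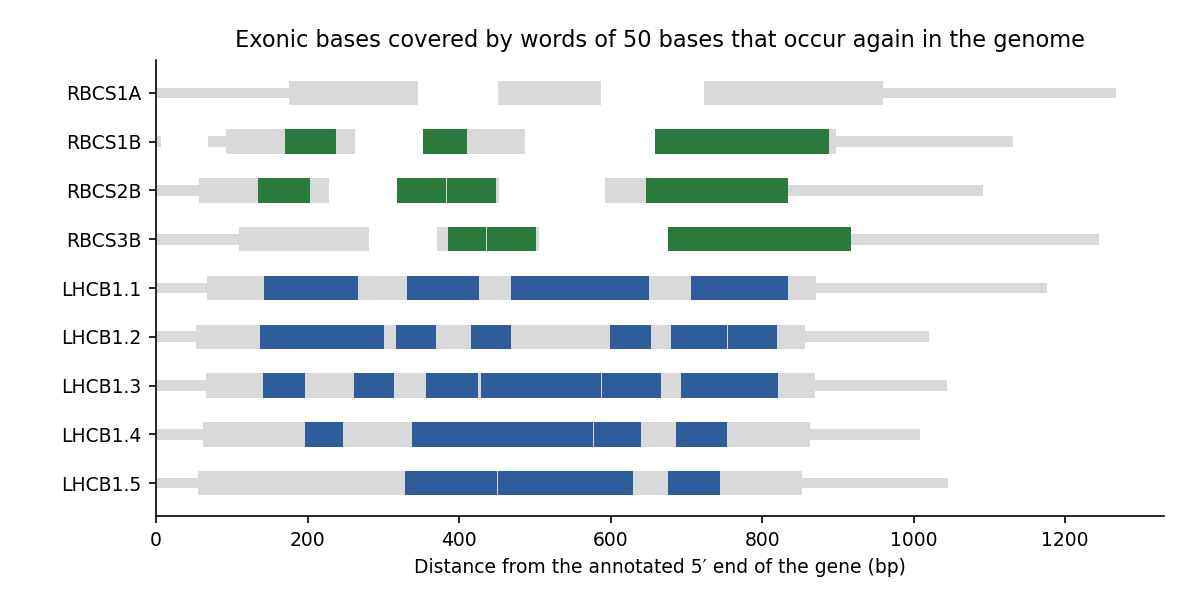
Exonic bases of the first listed isoforms (grey, tall where coding) and the bases covered by words of 50 bases that occur elsewhere in the genome (coloured), in bp from the 5′ end of each gene. RBCS1A has none, and in the other 8 genes the coloured stretches lie in coding sequence.

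The length of the word changes the picture for some genes more than others. With 25 bases, 7.45% of the words of RBCS1A and 46.7% of those of RBCS1B and of LHCB1.3 were repeated. With 100 bases, the share was 25.9% in RBCS1B and 18.7% in RBCS3B, 1.85% to 5.01% in the LHCB1 genes, and 0 in RBCS1A and RBCS2B. When words were allowed up to 2 differences from another member, a setting added after the first values were seen, the range was 11.8% in RBCS1A to 70.1% in LHCB1.3. Neither the read length nor the treatment of reads with several matches is given in the sources used here.

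Known light-response elements were looked for in the 250 bases before each annotated start, as exact letters on both strands. The I-box GATAAG, an element of many light-regulated promoters, was found in 6 of 9 members: all 4 RBCS genes, LHCB1.3 and LHCB1.4. It occurred in 12.8% of the 27205 promoters. The G-box CACGTG, bound by bZIP and bHLH factors, was found in 3 of 9 members, RBCS1A, RBCS2B and RBCS3B, and in 7.69% of promoters. The sites of the clock factor CCA1, AAAAATCT and AACAATCT, were found in 3 of 9 members, LHCB1.1, LHCB1.3 and LHCB1.4, and in 8.28% of promoters. The TATA box TATAAA was found in 4 of 9 members, RBCS1A, RBCS2B, LHCB1.4 and LHCB1.5, and in 47.9% of promoters. Matches of different motifs did not overlap, and a pair of I-box matches in RBCS1B shared 1 base.

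The I-box nearest to the start was followed in all 4 RBCS genes by nearly the same bases, in RBCS1A as in the tandem. These windows of 30 bases are shown, with the I-box in capitals, because of that shared stretch. The bases before the I-box were less alike.
RBCS1A (chr1:25049462-25049491, minus strand): gcggttcaagccGATAAGggtctcaacacc
RBCS1B (chr5:15385303-15385332, minus strand): aaagaaagataaGATAAGggtgtcaacacc
RBCS2B (chr5:15382148-15382177, minus strand): gtggtccaaatcGATAAGggtgtcaacacc
RBCS3B (chr5:15378477-15378506, minus strand): gtggtgcgtaccGATAAGggtgtcaacacc
The I-box began 55 bases before the annotated start in RBCS1A, 73 in RBCS1B, 130 in RBCS2B and 78 in RBCS3B. Counted from the coding start, RBCS2B and RBCS3B were nearly superimposed. Their upper I-box lay at 239 and 240 bases, the G-box at 216 and 217, an I-box on the reverse strand at 208 and 209, and the nearest I-box at 187 and 188.

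The G-box windows of the 3 genes follow, with the G-box in capitals.
RBCS1A (chr1:25049491-25049520, minus strand): ggaattatcttcCACGTGgcattattccag
RBCS2B (chr5:15382177-15382206, minus strand): ggagttttctgcCACGTGatcttatcctag
RBCS3B (chr5:15378506-15378535, minus strand): ggagttttctgcCACGTGgccttatcctag
RBCS2B and RBCS3B differ at few of these bases, and RBCS1A at more. In RBCS1B these 6 letters were not in the window. The G-box began 259 bases before the coding start in RBCS1A.

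The CCA1 sites of the LHCB1 genes are shown with the 8 matching bases in capitals.
LHCB1.1 (chr1:10476029-10476058, minus strand): aacgataaaacAAAAATCTtaaaatccaat
LHCB1.3 (chr1:10477869-10477898, plus strand): gtaagcaaacaAACAATCTaaaccccaaaa
LHCB1.3 (chr1:10477887-10477916, plus strand): taaaccccaaaAAAAATCTatgactagcca
LHCB1.4 (chr2:14524578-14524607, plus strand): aattccaaaccAAAAATCTgatgccagctc
LHCB1.4 (chr2:14524606-14524635, plus strand): tcgacaagacaAAAAATCTaagctcaaaaa
They began 88 bases before the annotated start in LHCB1.1, 125 and 107 in LHCB1.3, and 167 and 139 in LHCB1.4. No RBCS gene held these letters in the window, and neither did LHCB1.2 or LHCB1.5. A match is a run of letters and was not tested as a binding site. Which motifs fall in the window depends on the annotated start. The 250 bases before the coding start were searched after the first values were seen. They held the TATA box in RBCS1B, RBCS2B, RBCS3B, LHCB1.4 and LHCB1.5, 5 of 9 members, and in 41.8% of promoters. In RBCS1A the TATA box lay 376 bases before the coding start, outside that window. From the TAIR10.1 starts, which lie further upstream in 8 genes, the I-box and the G-box were each left in RBCS2B alone. That is 1 of 9 members for each, where 12.3% of all promoters held the I-box and 6.49% the G-box. The I-box share was then near that of all promoters.

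The other light-harvesting genes were less alike in structure. The list held 16 genes, LHCA1 to LHCA6 of the photosystem I antenna and LHCB2.1 to LHCB7, most of them of the photosystem II antenna. Only LHCB4.2 had no intron in its first listed isoform, the median was 2 introns, and LHCB5 and LHCB7 had the most, with 5. More than 1 isoform was listed for 5 of the 16, with 4 in LHCA1. Within 1 family, LHCB2.1, LHCB2.2 and LHCB2.3 were as uniform as the LHCB1 genes in intron and isoform number in TAIR10. Each had 1 intron and 1 isoform, and their coding sequences were 798, 798 and 801 bp. TAIR10.1 listed 2 isoforms for LHCB2.1 and LHCB2.3, and still 1 for LHCB2.2 and for each LHCB1 gene. The proteins were 21.5% to 77.0% identical to the closest LHCB1 protein with gaps counted. The lowest value was that of LHCB4.2, whose first listed of 2 isoforms encodes 227 residues, and the next lowest was 30.7%. The 3 LHCB2 proteins, which join LHCB1 in LHCII trimers, came closest, with 75.7% to 77.0%, and LHCB3, the other LHCII protein, had 67.4%.

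LHCB2.1 and LHCB2.2 were the only pair of list genes that neighboured each other. They lay on the same strand of chromosome 2 at a distance of 22847 bp, wider than any gap inside the RBCS and LHCB1 clusters. Each held 308 words of 50 bases that occurred again in the genome, and in which gene they recurred was not listed. No list gene shared a word of 50 bases with a member. With 25 bases, LHCB3 shared 13 words with each of the 3 chromosome 1 genes. LHCB2.2 shared 1 word with each LHCB1 gene but LHCB1.1, and LHCA2 shared 1 with LHCB1.4 and with LHCB1.5. The 8 Rubisco genes were the large subunit RBCL of the chloroplast genome, the activase RCA and 6 assembly genes. RCA had the most introns, 6, and the most isoforms, 3. None of the 8 neighboured another, and none shared a word of 25 or 50 bases with an RBCS gene.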

How the data were processed

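The deposited file is the TAIR10 gene annotation. As the authors deposited it, each of its 590264 lines gives a feature by its start and end position in bp, with the first base numbered 1. A score was found on 0 lines and a library's values in 0 columns. The tools used were TopHat2 2.0.8 and Trimmomatic 0.0.3, with the build TAIR10, per the submitters' processing notes. Read assignment and expression are not analysed here. The members, gene lists and motifs were chosen with earlier results of these data known.

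Sequences are from RefSeq TAIR10.1, read at TAIR10 positions. The 5 nuclear chromosomes had equal lengths in both, and 99.8% of 27206 first listed isoforms of nuclear coding genes gave intact frames. Lengths refer to the first listed isoform, exonic bases to the union of isoforms. Medians of UTR lengths are over genes with an annotated UTR. Pairs were aligned globally (Biopython 1.88; match 1, mismatch -1, gap opening -4, extension -0.5), coding sequences by codon. Words of 50 bases lay in single exons. The start of the mature RBCS chain was found by its conserved first residues. Motif searches covered 250 bases before the start. Python 3.11.15, numpy 2.4.6 and matplotlib 3.10.9 were used. Word, intron and overlap steps were tested on simulated data.

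Named besides the 9 members were list genes that neighbour another list gene, share a word with a member, or have the most isoforms or introns, and loci between members or sharing exonic bases. Flanking genes, LHCB2.3 and LHCB4.2 were named after their values were seen. Some items are not reported here. Alternatives were coding-sequence gaps, all isoforms, the TAIR10.1 annotation, gaps counted, proteins, other word lengths and other promoter windows.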

Additional observations from a re-analysis of the deposited data

How the results depend on the processing

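The values rest on annotated ends, and library depth plays no part. Gaps in the order LHCB1.2 to LHCB1.1, LHCB1.1 to LHCB1.3, LHCB1.5 to LHCB1.4, RBCS3B to RBCS2B and RBCS2B to RBCS1B were 1842, 2178, 1304, 2896 and 2371 bp between coding sequences, and 1153, 1915, 1038, 2264 and 1095 bp in TAIR10.1. Introns numbered 12 over all isoforms and 12 in TAIR10.1, where first isoforms had 9. Over all TAIR10 isoforms the median intron was 138 in place of 106 bp. The median RBCS 3′ UTR was 293 bp when the longest of each gene was taken. In TAIR10.1 the median 5′ UTR was 250.5 bp in RBCS and 186 bp in LHCB1, the median 3′ UTR 472.5 and 240 bp, and median exonic bases 1339 and 1230 bp, and 2 members shared exonic bases in place of 1. Median coding identity was 93.6% in RBCS and 90.4% in LHCB1. It was 93.4% and 89.7% with gaps counted, and 94.7% and 97.7% for proteins. The median share of repeated words, 21.6% in RBCS and 18.0% in LHCB1, was 38.6% and 40.3% with 25 bases, 9.33% and 4.23% with 100 bases, and 46.9% and 55.4% with up to 2 differences. In spliced RBCS transcripts it was 23.0%. With 100 bases before the start, the G-box was found in 1 member and the CCA1 site in 1. These were held by 3.62% and 3.14% of promoters, respectively. From the TAIR10.1 start, a window added after the first values were seen, the G-box was found in 1 member and the I-box in 1. There 6.49% and 12.3% of promoters held them, respectively. The cause of each change follows from the construction of the alternative. Of 57 alternative values 23 were unchanged or, for counts, within 1.5 times, 34 moved and 0 reversed. A reversal meant a change of sign, which counts, lengths and percentages cannot show. The 0 therefore carries no information for these values.

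No paired analysis was possible because the annotation carries no library values.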
